A study of Mus musculus with 6 samples.

Results

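The cell cycle and replication genes described here are 50 genes chosen by name, 18 that copy DNA or supply its building blocks and 32 that drive or carry out the division of the cell, called the replication and the mitotic set. The latter also holds Ccne1, Ccne2 and Cdk2, which act at the entry into replication. Members were found by gene symbol among the 24421 genes of the deposited table, which held all 50, and all 50 passed the filter on low counts. RNA was measured by poly(A) sequencing in marrow dendritic cells of C57BL/6 mice, which flow cytometry had picked out by dendritic cell markers. The WT group holds 3 samples from wild-type mice, and the TCL group holds 3 samples with murine chronic lymphocytic leukaemia (CLL) in an adoptive transfer model, in which leukaemic B cells are moved into host mice. The sources used here name neither the sort markers nor the number and age of the mice behind a sample, the donor of the leukaemic cells or the time after transfer. The p-values therefore weigh the group difference only against the spread within groups of these samples, and that spread may be technical in part. The design compares marrow dendritic cells with and without the leukaemia. The labels name no batch, so no value was recomputed within batches.

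A cell that divides first loads the ring of MCM proteins onto its DNA with the help of Cdc6 and Cdt1, then turns the ring into an active helicase by adding Cdc45 and the GINS complex, and copies the DNA with polymerases held in place by the sliding clamp PCNA. Cyclins and cyclin-dependent kinases drive these steps and the later entry into mitosis, where kinetochores tie the chromosomes to the spindle and the Aurora and Polo kinases steer their separation. Most genes of the first stage are targets of E2F factors, and most genes of mitosis are held down in resting cells by the DREAM complex and raised by MuvB, B-Myb and FoxM1 through a promoter element called CHR. Mature dendritic cells divide little, while their precursors in marrow, like those of red cells, granulocytes and B cells, divide often.

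The promoters of 5 members are shown, because they hold the letters that are counted over both sets below. Each sequence holds the 200 bases before the transcription start that the RefSeq promoter table uses, 5′ to 3′ on the strand of the gene, from RefSeq on GRCm38.p6, the assembly that mm10 stands for. Capitals mark the CHR letters TTTGAA, the CCAAT box letters CCAAT and the E2F letters TTTCCCGC, TTTCGCGC, TTTGCCGC or TTTGGCGC, each on either strand. In Cdk1 the letters nearest to the start are a CHR match that begins 15 bases before it, and in Ube2c and Cdc20 the CHR matches begin 29 and 18 bases before the start. In Mcm6 E2F matches begin 110, 106 and 47 bases before it, of which the pair farther from the start overlap on opposite strands. Cdk1 also holds an E2F match, 131 bases before its start, and Mcm6 holds CCAAT boxes as the mitotic genes do. The start used for Top2a lies 10 bases inside the outer end of the annotated gene. The CCAAT matches of Ube2c that begin 186 and 183 bases before the start also overlap.
Cdk1 (chr10:69352913-69353112, minus strand): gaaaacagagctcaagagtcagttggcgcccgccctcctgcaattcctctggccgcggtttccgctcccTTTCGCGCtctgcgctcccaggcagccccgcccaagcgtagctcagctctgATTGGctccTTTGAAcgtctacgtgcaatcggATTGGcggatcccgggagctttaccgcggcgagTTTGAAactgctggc
Top2a (chr11:99024190-99024389, minus strand): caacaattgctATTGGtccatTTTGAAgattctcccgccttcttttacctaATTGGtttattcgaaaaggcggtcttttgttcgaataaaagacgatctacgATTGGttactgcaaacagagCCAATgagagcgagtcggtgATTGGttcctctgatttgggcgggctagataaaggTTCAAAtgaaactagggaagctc
Ube2c (chr2:164769729-164769928, plus strand): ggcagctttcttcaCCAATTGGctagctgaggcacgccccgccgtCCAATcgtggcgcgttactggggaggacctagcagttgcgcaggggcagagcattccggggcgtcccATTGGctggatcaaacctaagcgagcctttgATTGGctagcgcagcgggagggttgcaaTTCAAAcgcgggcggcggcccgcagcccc
Cdc20 (chr4:118437344-118437543, minus strand): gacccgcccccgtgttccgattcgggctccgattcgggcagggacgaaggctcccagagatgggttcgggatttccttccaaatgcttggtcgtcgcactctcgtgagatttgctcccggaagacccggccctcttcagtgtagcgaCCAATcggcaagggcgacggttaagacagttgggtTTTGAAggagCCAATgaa
Mcm6 (chr1:128359706-128359905, minus strand): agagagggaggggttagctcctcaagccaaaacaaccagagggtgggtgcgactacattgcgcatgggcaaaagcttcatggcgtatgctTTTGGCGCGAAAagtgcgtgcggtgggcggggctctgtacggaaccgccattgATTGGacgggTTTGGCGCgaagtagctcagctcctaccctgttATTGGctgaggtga

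Of the 50 members 40 had at least 1 promoter in the RefSeq table, and the window searched ran from 250 bases before to 50 after the start, on both strands. The 10 members with no promoter there were Mcm4, Gins2, Pole, Ccne2, Ccna2, Cdc25c, Foxm1, Aurkb, Kif20a and Tpx2. The CHR letters were found in 16 of 25 genes of the mitotic set (64%) and in 2 of 15 of the replication set (13.3%), Mcm2 and Cdc45. They were in 14.5% of the 9929 tested genes with a promoter in the table and in 20.2% of all 27025 genes of that table. The E2F letters were found in 7 of 15 replication genes (46.7%), namely Mcm3, Mcm5, Mcm6, Mcm7, Cdc6, Cdt1 and Pola1. In the mitotic set Cdk1 and Cdk2 held them, 2 of 25 (8%), against 4.6% of tested genes and 2.6% of all. The CCAAT box was in 80% of mitotic and 66.7% of replication genes, with 42.7% of tested genes and 41.1% of all, and the GC box letters GGGCGG in 84% and 80%, with 66.8% and 38.2%. In 9 members, Mcm5, Mcm7, Cdc6, Pola1, Tk1, Dut, Cdc25b, Aurka and Mki67, a start in that table lies over 30 bases inside the annotated gene, so the window then covers a start other than the outermost. A match describes these letters only and is no evidence that a factor was bound.

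**Figure D1:**
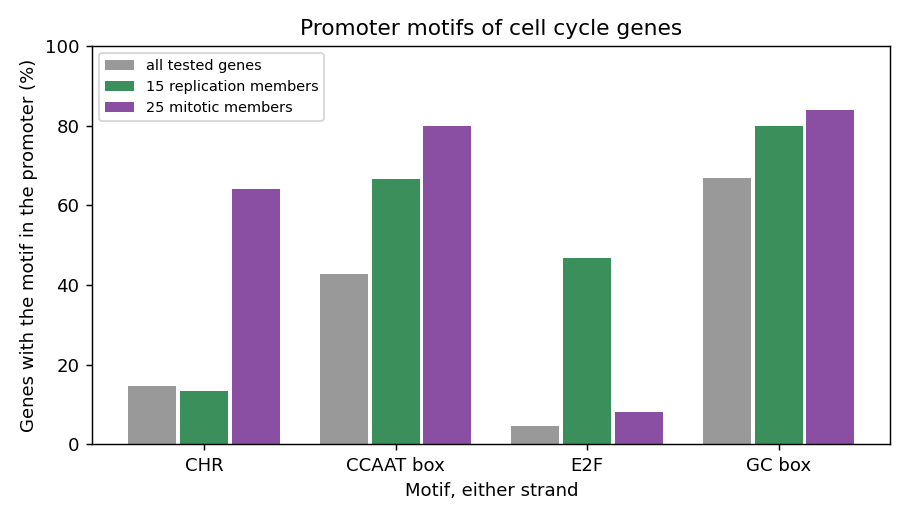
Percent of genes whose promoter holds each motif on either strand, for all 9929 tested genes with a promoter in the RefSeq table (grey), 15 replication members (green) and 25 mitotic members (purple). The CHR bar stands at 64% for mitotic members and the E2F bar at 46.7% for replication members, against 14.5% and 4.6% of tested genes.

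The recovered read totals ran from 17158819 to 22888203 in WT libraries and from 22868112 to 25674314 in TCL libraries. Members had between 54 and 6544 reads in a library. Libraries carry the numbers of the table, WT 3, 7 and 9 and TCL 4, 8 and 10, which are not the replicate numbers of the labels. Levels are CPM, reads scaled to a common effective library size of 1000000. Of the 9 conventional dendritic cell markers all were detected in every library, but 5 fell in TCL, namely Flt3, Clec9a, Batf3, Cd209a and Clec10a. Itgax had 383 to 528 CPM in WT and 375 to 655 CPM in TCL, whereas Cd209a had 473 to 972 CPM in WT and 17.7 to 44.4 CPM in TCL. Markers of other dividing marrow cells were present too and are given with the results. WT library 7 and TCL library 8 stood apart from the rest of their groups in the members, so the values without TCL library 8 are given beside the main results.

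None of the cell cycle and replication members passed the test of a difference between the groups. Of 50 members 0 rose and 0 fell at an adjusted p under 0.05 in edgeR's quasi-likelihood test, while 4.64% of the 13010 tested genes were called, 2.03% higher and 2.61% lower in TCL. At an unadjusted p under 0.05 stood 3 members, Bub1b, Kif20a and Mki67, or 6% of the members against 22.4% of all tested genes. DESeq2, limma-voom and limma-trend called 0 members as well, and in the authors' deposited table no member passed 0.05, with a smallest adjusted p of 0.0649, where 8.11% of genes with a read did. The log2 fold changes of members ran from -0.36 to 0.93 with a median of 0.22, and 38 of 50 lay above 0, where all tested genes had a median of 2.6e-05 and 50% above 0. This lean toward TCL came with 1 library: without TCL library 8 the median was -0.081 and again 0 were called. In that fit, which kept WT library 7, 34 of 50 members lay below 0 against 51.6% of all genes. Without WT library 7, 43 members lay above 0 and 7 below.

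The test bounds the size of the differences. The 95% interval of the log2 fold change lay within 2-fold either way for 39 of 50 members, 16 of 18 in the replication set and 23 of 32 in the mitotic set, against 58.5% of all tested genes. The 11 members whose interval reached past 2-fold were Cdc6, Dut, Ccne1, Ccne2, Cdk1, Cdc25c, Aurka, Cenpa, Kif20a, Hmmr and Mki67. A tighter bound did not hold for most: the interval stayed within 1.5-fold for 6 members. In bulk samples fewer dividing cells and less RNA per cell cannot be told apart.

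**Figure D2:**
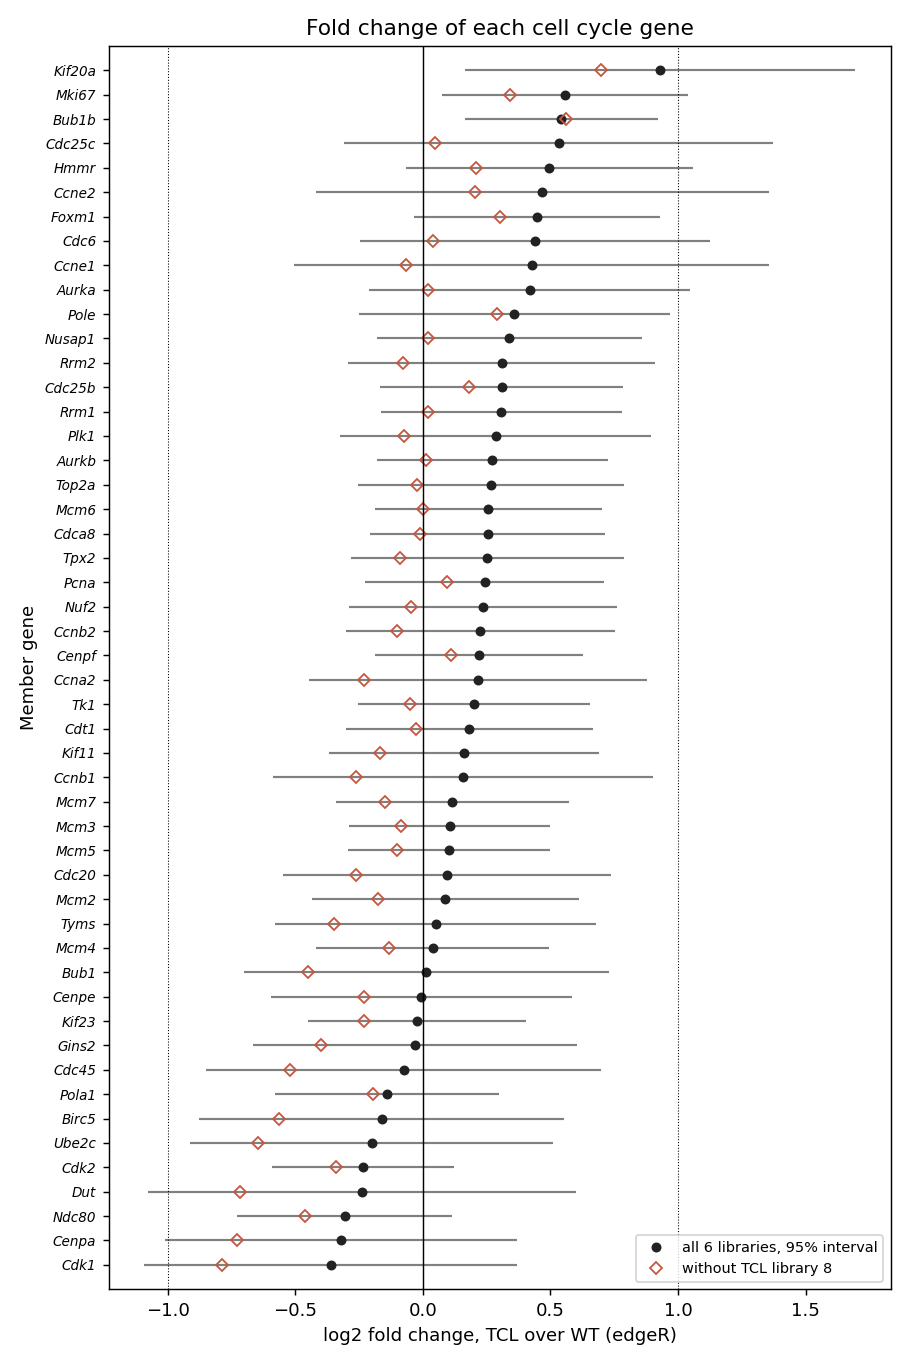
Log2 fold change of TCL over WT for each of the 50 members in edgeR's test (black points, with 95% intervals in grey, 3 libraries a group), ordered by value; dotted lines mark 2-fold. Open diamonds give the value without TCL library 8, which lies to the left of the black point for every member but Bub1b.

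The score of a library, the mean log2 CPM over the 50 members, was 5.26, 5.498 and 5.25 in WT libraries 3, 7 and 9 and 5.20, 5.97 and 5.27 in TCL libraries 4, 8 and 10. TCL libraries 4 and 10 lay close to WT libraries 3 and 9, WT library 7 lay above these, and TCL library 8 lay highest of all. The mean was 5.34 ± 0.139 in WT and 5.48 ± 0.425 in TCL (SD, n = 3 each). The difference of 0.14 is smaller than the SD of the TCL group. It was -0.102 without TCL library 8, with WT library 7, the highest of WT, kept. TCL library 8 exceeded the mean of the other TCL libraries by 0.69 in the replication score and 0.76 in the mitotic score. WT library 7 exceeded the mean of the other WT libraries by 0.19 and 0.27. In summed level the members held 2558, 3052 and 2508 CPM in WT libraries 3, 7 and 9 and 2429, 4071 and 2517 CPM in TCL libraries 4, 8 and 10.

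**Figure D3:**
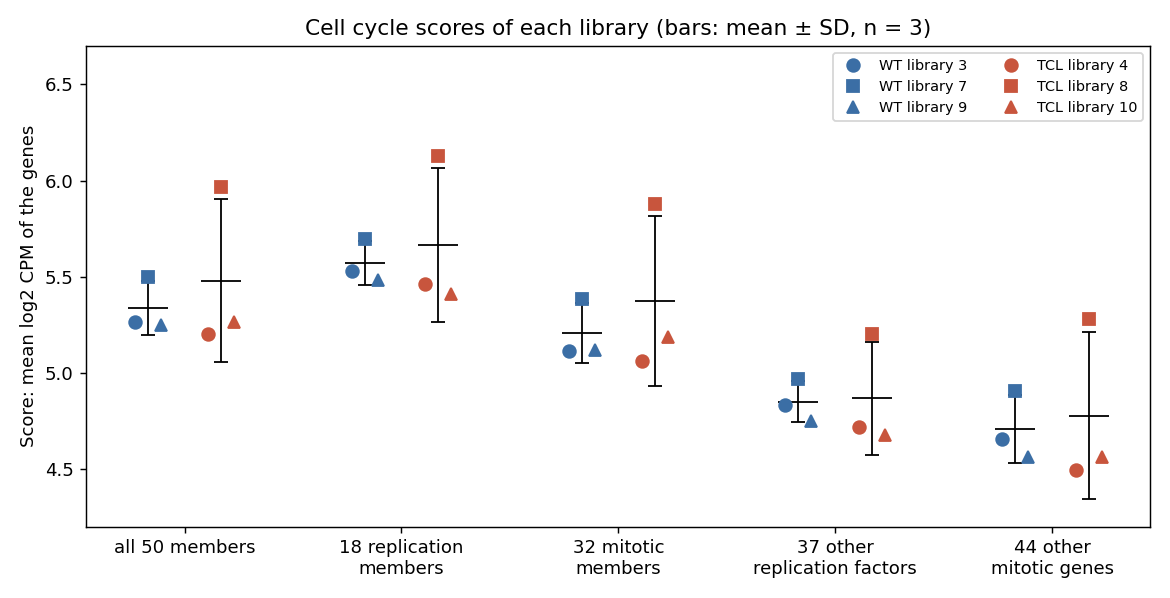
Score of each library, the mean log2 CPM of the genes named on the axis, for 3 WT (blue) and 3 TCL libraries (red); black bars give the mean and SD of each group. In all 5 gene sets TCL library 8 (red square) stands above the other 5 libraries and WT library 7 (blue square) above the other 2 WT libraries, while TCL libraries 4 and 10 lie below WT library 7 in each set.

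In TCL library 8, 40 of 50 members had their highest level of the 6 libraries, where 15.2% of all tested genes did. Among the TCL libraries alone it was the highest for 48 of 50, against 36.1% of all genes, and TCL library 10 was the highest for Pole and Bub1b. The ratio of TCL library 8 to the mean of TCL libraries 4 and 10 had a median of 1.66 over the members, from 0.96 in Bub1b to 2.24 in Ccne1, and of 0.999 over all tested genes. WT library 7 was the highest WT library for 29 members, against 38.3% of all genes. The 10 members whose highest level lay outside TCL library 8 had it as follows: Dut, Cdk1, Cdk2, Birc5, Cenpa, Cenpe and Ndc80 in WT library 7, Pola1 in WT library 9, and Pole and Bub1b in TCL library 10. These shares describe a pattern that was seen in the data, in 1 library, and carry no test. The summed level of the erythroid markers was also highest in TCL library 8, at 973 CPM against 367 and 334 CPM in TCL libraries 4 and 10, and its part in the pattern was not tested.

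**Figure D4:**
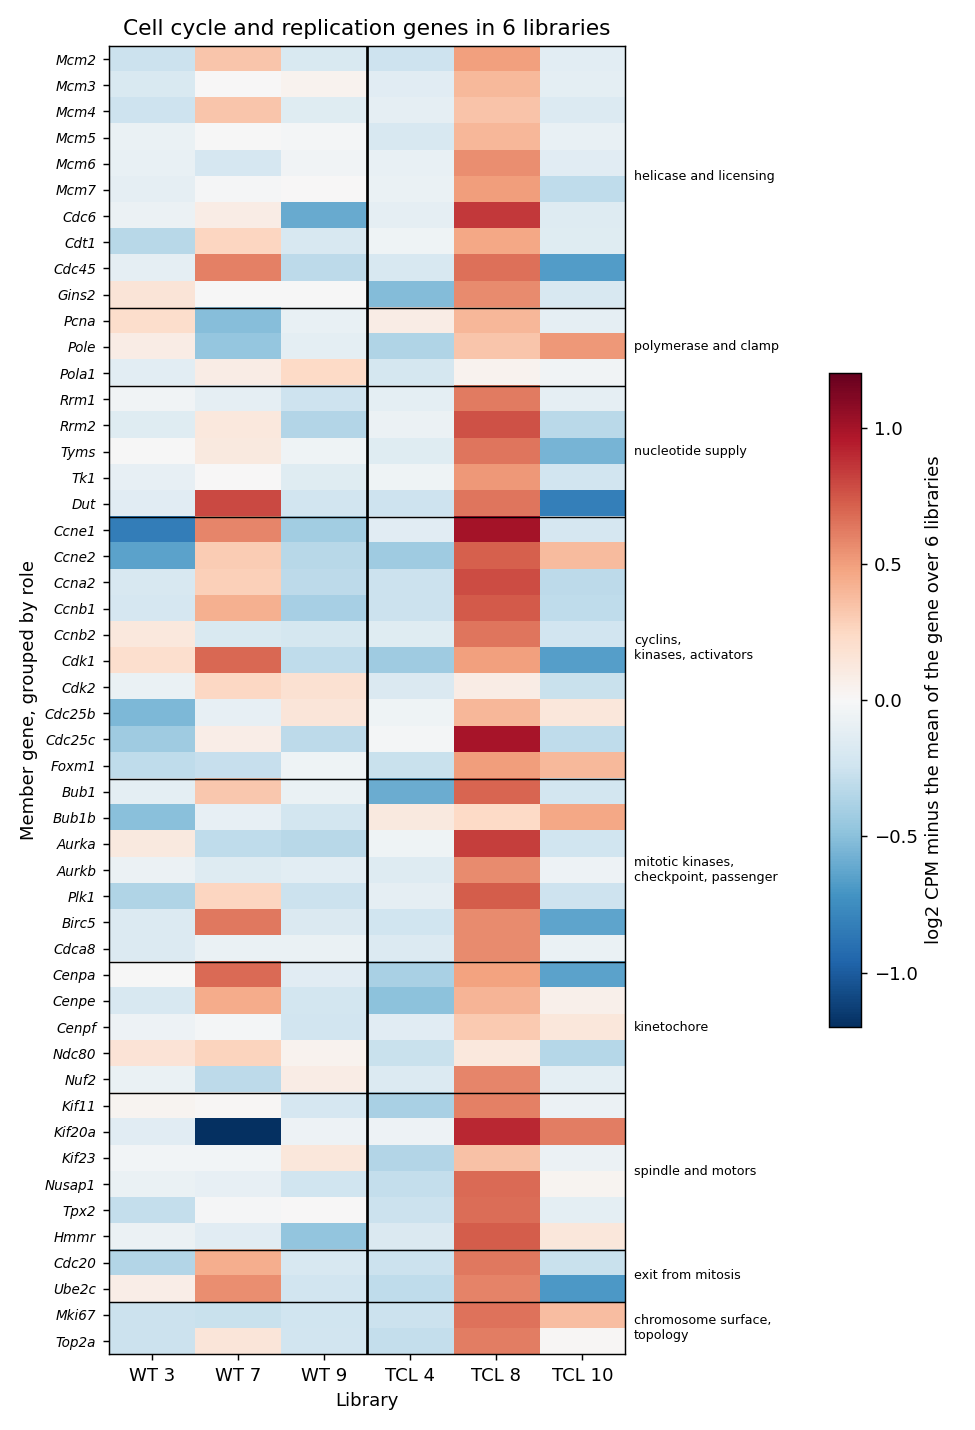
Level of each member in each library as log2 CPM minus the mean of that gene over the 6 libraries, with red above and blue below that mean and members grouped by role. The column of TCL library 8 is red for every member, WT library 7 is red for many but not all members, and Bub1b alone is above its mean in all 3 TCL libraries and below it in all 3 WT libraries.

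None of the 10 genes of the helicase and its loading passed the test, with log2 fold changes from -0.075 to 0.44. Mcm2, a subunit of the helicase ring, had 60.3, 90.9 and 63.5 CPM in WT libraries 3, 7 and 9 and 60.6, 102 and 65.9 CPM in TCL libraries 4, 8 and 10. The groups overlapped, with WT library 7 and TCL library 8 high. Mcm2 had a log2 fold change of 0.088 (SE 0.23, 95% interval -0.44 to 0.61, adjusted p 0.853). Mcm6, another subunit of the ring, had 93.9, 86.6 and 96.7 CPM in WT libraries 3, 7 and 9 and 93.9, 147 and 90.7 CPM in TCL libraries 4, 8 and 10. Apart from TCL library 8, the libraries lay close together. Mcm6 had a log2 fold change of 0.26 (SE 0.198, 95% interval -0.19 to 0.702, adjusted p 0.468). Cdc6, which loads the ring onto origins, had 18.1, 20.4 and 12.6 CPM in WT libraries 3, 7 and 9 and 17.7, 34.3 and 17.1 CPM in TCL libraries 4, 8 and 10 and a log2 fold change of 0.44 (SE 0.31, 95% interval -0.24 to 1.13, adjusted p 0.42). All 10 genes were highest in TCL library 8, by 1.39 to 2.11 times the mean of the other TCL libraries, and without it 9 of 10 lay below 0. The other subunits Mcm3, Mcm4, Mcm5 and Mcm7 had log2 fold changes of 0.11, 0.039, 0.10 and 0.12, and the licensing factor gene Cdt1 of 0.18. Cdc45 and Gins2, which complete the active helicase, had -0.075 and -0.029.

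The clamp gene Pcna had 116, 70.6 and 94.0 CPM in WT libraries 3, 7 and 9 and 107, 132 and 93.2 CPM in TCL libraries 4, 8 and 10. It was lowest in WT library 7, the WT library in which 29 members were highest. Pcna had a log2 fold change of 0.24 (SE 0.21, 95% interval -0.22 to 0.71, adjusted p 0.519). Pole, the catalytic subunit of the leading-strand polymerase, had 13.7, 9.38 and 11.9 CPM in WT libraries 3, 7 and 9 and 10.1, 16.3 and 18.5 CPM in TCL libraries 4, 8 and 10 and a log2 fold change of 0.36 (SE 0.27, 95% interval -0.25 to 0.97, adjusted p 0.461). Pola1, of the polymerase that starts new strands, stood in TCL library 8 at 1.12 times the mean of the other TCL libraries and had -0.14 on the log2 scale, TCL over WT (adjusted p 0.706). Among the 5 genes of nucleotide supply, Rrm1 and Rrm2 encode the subunits of ribonucleotide reductase, which makes the deoxynucleotides. Rrm1 had 103, 98.8 and 89.3 CPM in WT libraries 3, 7 and 9 and 98.0, 164 and 98.7 CPM in TCL libraries 4, 8 and 10, and a log2 fold change of 0.31 (SE 0.21, 95% interval -0.17 to 0.78, adjusted p 0.414). Rrm2 had 66.8, 80.4 and 57.7 CPM in WT libraries 3, 7 and 9 and 70.1, 125 and 58.8 CPM in TCL libraries 4, 8 and 10, with a log2 fold change of 0.31 (SE 0.27, 95% interval -0.29 to 0.91, adjusted p 0.522). In both genes TCL library 8 stood alone above all others. Tyms and Tk1, enzymes of thymidine nucleotide synthesis, had log2 fold changes of 0.050 and 0.20. Dut, which removes dUTP, had 102.6 CPM in WT library 7 and 92.1 CPM in TCL library 8 but 33.4 to 53.9 CPM in the other libraries, and a fold change of -0.24 on the log2 scale (adjusted p 0.742).

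Of the 10 cyclins, kinases and their activators 0 passed the test and 8 had a log2 fold change above 0. Cdk1, the kinase that starts mitosis, at 69335146 to 69352912 of chromosome 10 (GRCm38.p6), had 66.4, 93.3 and 46.9 CPM in WT libraries 3, 7 and 9 and 42.8, 81.5 and 36.5 CPM in TCL libraries 4, 8 and 10. It had the lowest log2 fold change of all members, -0.36 (SE 0.33, 95% interval -1.09 to 0.37, adjusted p 0.542). Without TCL library 8 the value was -0.79 and the groups did not overlap, but the adjusted p was 0.101. Its partner gene Ccnb1, cyclin B1, had 13.3, 20.7 and 11.7 CPM in WT libraries 3, 7 and 9 and 12.8, 25.6 and 12.4 CPM in TCL libraries 4, 8 and 10, and a log2 fold change of 0.16 (SE 0.33, 95% interval -0.59 to 0.901, adjusted p 0.814). Cdk2, the kinase of the entry into replication, had 68.7, 86.3 and 82.4 CPM in WT libraries 3, 7 and 9 and 64.4, 76.9 and 60.2 CPM in TCL libraries 4, 8 and 10, and a log2 fold change of -0.24 (SE 0.16, 95% interval -0.59 to 0.12, adjusted p 0.406). Foxm1, the transcription factor of many mitotic genes, had 25.6, 26.2 and 30.7 CPM in WT libraries 3, 7 and 9 and 26.4, 44.8 and 41.6 CPM in TCL libraries 4, 8 and 10. TCL libraries 8 and 10 lay above all WT libraries and TCL library 4 inside their range. Foxm1 had a log2 fold change of 0.45 (SE 0.22, 95% interval -0.032 to 0.93, adjusted p 0.253). The cyclin E genes Ccne1 and Ccne2 had log2 fold changes of 0.43 and 0.47, with intervals from -0.50 to 1.36 and from -0.42 to 1.36. Cyclin genes Ccna2 and Ccnb2 had 0.22 and 0.23, and the phosphatase genes Cdc25b and Cdc25c, whose products activate the kinases, had 0.31 and 0.53.

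Bub1b had the smallest adjusted p of all members. It encodes BubR1, which delays the separation of chromosomes until all are attached, and lies at 118598202 to 118641592 of chromosome 2 (GRCm38.p6). Bub1b had 33.7, 44.4 and 41.0 CPM in WT libraries 3, 7 and 9 and 51.5, 56.3 and 65.8 CPM in TCL libraries 4, 8 and 10. Every TCL library lay above every WT library, and TCL library 8 was not the highest of them. Bub1b had a log2 fold change of 0.54 (SE 0.17, 95% interval 0.17 to 0.92, adjusted p 0.1), and of 0.56 (adjusted p 0.106) without TCL library 8. Only Bub1b and Kif20a among the members had groups that did not overlap with TCL higher, 2 of 50 against 14.1% of all tested genes, and 0 of 50 had TCL lower, against 14.2%. Aurka, the Aurora kinase of the spindle poles, had 31.5, 23.5 and 23.1 CPM in WT libraries 3, 7 and 9 and 28.1, 51.7 and 24.6 CPM in TCL libraries 4, 8 and 10, and a log2 fold change of 0.42 (SE 0.28, 95% interval -0.21 to 1.05, adjusted p 0.402). Aurkb, Birc5 and Cdca8, of the passenger complex that corrects faulty attachments, had log2 fold changes of 0.27, -0.16 and 0.26. Plk1, the Polo kinase, and Bub1, a checkpoint kinase, had 0.29 and 0.013.

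Kif20a, a motor of the final cut between daughter cells, had 15.8, 7.30 and 16.6 CPM in WT libraries 3, 7 and 9 and 16.6, 32.6 and 26.5 CPM in TCL libraries 4, 8 and 10. The lowest TCL library and the highest WT library were nearly level, and WT library 7 was far below the others. Kif20a had the largest log2 fold change of all members, 0.93 (SE 0.34, 95% interval 0.16 to 1.69, adjusted p 0.155), and 0.697 without TCL library 8 (adjusted p 0.248). Hmmr, a spindle assembly protein, had 20.2, 19.2 and 15.2 CPM in WT libraries 3, 7 and 9 and 18.8, 35.0 and 23.3 CPM in TCL libraries 4, 8 and 10, and a log2 fold change of 0.496 (SE 0.25, 95% interval -0.066 to 1.06, adjusted p 0.275). The other spindle genes Kif11, Kif23, Nusap1 and Tpx2 had log2 fold changes of 0.16, -0.022, 0.34 and 0.25. In the kinetochore set, Ndc80, the subunit that grips microtubules, had 27.9, 30.04 and 25.7 CPM in WT libraries 3, 7 and 9 and 20.7, 27.3 and 19.6 CPM in TCL libraries 4, 8 and 10, and a log2 fold change of -0.31 (SE 0.19, 95% interval -0.73 to 0.11, adjusted p 0.364). Cenpf, a large protein of the outer kinetochore, had 23.3, 23.9 and 20.8 CPM in WT libraries 3, 7 and 9 and 22.2, 30.3 and 26.8 CPM in TCL libraries 4, 8 and 10, and a log2 fold change of 0.22 (SE 0.18, 95% interval -0.19 to 0.63, adjusted p 0.504). Cenpa, the histone variant that marks centromeres, had a log2 fold change of -0.32, Cenpe, a kinetochore motor, of -0.0056, and Nuf2, the partner of Ndc80, of 0.24. Ndc80 was lower in TCL libraries 4 and 10 than in any WT library, at 20.7 and 19.6 against 25.7 to 30.04 CPM.

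The genes that end mitosis, Cdc20 and Ube2c, work with the anaphase-promoting complex, which tags cyclin B for destruction. Ube2c had 137, 190.5 and 111 CPM in WT libraries 3, 7 and 9 and 105, 195 and 80.5 CPM in TCL libraries 4, 8 and 10. TCL library 8 and WT library 7 were nearly level and TCL library 10 was the lowest. Ube2c had a log2 fold change of -0.199 (SE 0.32, 95% interval -0.91 to 0.51, adjusted p 0.744). Cdc20 had 33.8, 58.4 and 37.9 CPM in WT libraries 3, 7 and 9 and 36.1, 66.9 and 35.9 CPM in TCL libraries 4, 8 and 10, and a log2 fold change of 0.095 (SE 0.29, 95% interval -0.55 to 0.74, adjusted p 0.873). Mki67, the proliferation marker Ki-67 that coats mitotic chromosomes, lies at 135689784 to 135716450 of chromosome 7. It had 142, 141 and 144 CPM in WT libraries 3, 7 and 9 and 142, 267 and 220.02 CPM in TCL libraries 4, 8 and 10. The WT libraries were nearly identical, TCL library 4 lay within their range, and TCL libraries 8 and 10 lay above it. Mki67 had a log2 fold change of 0.56 (SE 0.21, 95% interval 0.076 to 1.04, adjusted p 0.17), and of 0.34 (adjusted p 0.294) without TCL library 8. Top2a, the topoisomerase that untangles replicated chromosomes, had 129, 171 and 132 CPM in WT libraries 3, 7 and 9 and 127, 237 and 156 CPM in TCL libraries 4, 8 and 10, and a log2 fold change of 0.27 (SE 0.23, 95% interval -0.25 to 0.79, adjusted p 0.523).

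Without TCL library 8, and with WT library 7 kept, the members leaned the other way, but none was called. In that fit, where 6.78% of 13339 genes were called, the smallest adjusted p of a member was 0.101, for Cdk1. At an unadjusted p under 0.05 stood 6 members against 24.8% of all genes, 5 of them lower in TCL, namely Dut, Cdk1, Cenpa, Ndc80 and Ube2c, and Bub1b higher. With that library left out 12 of 50 members had every TCL library below every WT library, a share close to the 22% of all tested genes. These were Mcm5, Gins2, Tyms, Dut, Cdk1, Cdk2, Bub1, Birc5, Cenpa, Ndc80, Kif23 and Ube2c. Leaving out any 1 of the other 5 libraries kept the median of the members above 0, from 0.17 without WT library 3 to 0.35 without TCL library 10. No fit left out both WT library 7 and TCL library 8.

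Wider lists of the pathway, 144 genes in all and each tested, held 2 genes that rose and 1 that fell, where 4.64% of all tested genes were called and 22.4% had an unadjusted p under 0.05. Of 44 other mitotic genes, 2 were called higher, none lower and 42 not at all, with a median log2 fold change of 0.15, and -0.19 without TCL library 8. Kif18b, a motor that shortens spindle fibres, at 102905518 to 102925134 of chromosome 11, had 12.4, 12.8 and 16.4 CPM in WT libraries 3, 7 and 9 and 21.7, 33.3 and 26.0 CPM in TCL libraries 4, 8 and 10, and a log2 fold change of 0.96 (SE 0.22, 95% interval 0.47 to 1.46, adjusted p 0.0413). Espl1, which encodes separase, the protease that splits sister chromosomes, at 102296254 to 102324357 of chromosome 15, had 24.4, 27.8 and 24.3 CPM in WT libraries 3, 7 and 9 and 35.9, 44.7 and 46.9 CPM in TCL libraries 4, 8 and 10. Espl1 had a log2 fold change of 0.74 (SE 0.17, 95% interval 0.36 to 1.11, adjusted p 0.0409). In both genes every TCL library lay above every WT library. Both calls were lost without any single library, with adjusted p of 0.0611 to 0.142 for Kif18b and 0.0565 to 0.134 for Espl1, and Kif18b was not called with the filter of 5 CPM (0.0511) or by limma-voom (0.055). DESeq2 called both, with adjusted p of 0.00293 for Kif18b and 0.00536 for Espl1. In the authors' deposited table these values were 0.00333 and 0.00608. Of this list 43 of 44 genes had their highest TCL level in TCL library 8, and 5 had an unadjusted p under 0.05. Pttg1, the securin that blocks separase, is named, after its values were seen, because its call depends on the setting. It had 85.4, 97.0 and 58.4 CPM in WT libraries 3, 7 and 9 and 46.4, 49.2 and 26.8 CPM in TCL libraries 4, 8 and 10, with all TCL libraries below all WT libraries and an adjusted p of 0.0673. The adjusted p was 0.0422 without TCL library 8, 0.0449 with no filter and 0.00636 with DESeq2.

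Of 5 G1 cyclins and kinases, which answer growth signals, 1 fell, 0 rose and 4 did not pass. Ccnd1, cyclin D1, at 144929931 to 144939831 of chromosome 7, had 172, 104 and 155 CPM in WT libraries 3, 7 and 9 and 47.5, 55.5 and 89.1 CPM in TCL libraries 4, 8 and 10. All TCL libraries lay below all WT libraries. Ccnd1 had a log2 fold change of -1.16 (SE 0.26, 95% interval -1.76 to -0.57, adjusted p 0.0404). Leaving out a library ended the call in 4 of 6 fits, where the adjusted p rose to 0.137 for WT library 3, 0.0869 for WT library 9, 0.129 for TCL library 4 and 0.0543 for TCL library 8. DESeq2 called Ccnd1 with an adjusted p of 0.000446, and its adjusted p in the authors' deposited table was 0.000604. Ccnd2, cyclin D2, is named, after its values were seen, because its call depends on the setting. It had 40.7, 45.3 and 42.9 CPM in WT libraries 3, 7 and 9 and 41.0, 133 and 80.8 CPM in TCL libraries 4, 8 and 10. TCL libraries 8 and 10 lay above all WT libraries and TCL library 4 inside their range. The difference of 0.98 on the log2 scale was not called (adjusted p 0.135), and the adjusted p was 0.0271 without TCL library 4 and 0.0251 with DESeq2. Without TCL library 8 the difference was 0.4996 (adjusted p 0.242).

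None of 37 other replication factors passed in edgeR, where 3 had an unadjusted p under 0.05, with a median log2 fold change of 0.024. Orc2, of the origin recognition complex, and Rpa3, of the complex that coats single strands, had the smallest p-values there, with log2 fold changes of 0.53 (adjusted p 0.175) and -0.697 (adjusted p 0.191). Rpa3 stood at -0.36 without WT library 7 (adjusted p 0.512). Of 18 pocket protein, E2F and DREAM genes 0 passed and 2 had an unadjusted p under 0.05. Rb1, the retinoblastoma protein that restrains E2F, had 88.5, 76.0 and 84.8 CPM in WT libraries 3, 7 and 9 and 130.2, 86.3 and 137 CPM in TCL libraries 4, 8 and 10. TCL libraries 4 and 10 lay above all others and TCL library 8 within the WT range. Rb1 had a log2 fold change of 0.505 (SE 0.19, 95% interval 0.079 to 0.93, adjusted p 0.162), and of 0.69 without TCL library 8, where it was called (adjusted p 0.0302). Lin54, the DREAM subunit that binds the CHR element, had 0.42 (adjusted p 0.209). DESeq2 called none of these 2 lists, nor any gene of the checkpoint or Myc lists.

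Of 8 CDK inhibitor genes 0 passed in edgeR, 1 had an unadjusted p under 0.05 and DESeq2 called that gene, Cdkn1c (adjusted p 0.0367). It encodes p57, which restrains the entry into replication, and had 6.20, 8.52 and 4.91 CPM in WT libraries 3, 7 and 9 and 2.87, 2.45 and 3.63 CPM in TCL libraries 4, 8 and 10. Cdkn1c had a log2 fold change of -1.13 (SE 0.34, 95% interval -1.898 to -0.36, adjusted p 0.0969). Cdkn2a was near the limit of detection, with 0 reads in WT libraries 3 and 7 and at most 1.39 CPM in TCL library 8. Among 22 checkpoint and p53 response genes 0 passed and 4 had an unadjusted p under 0.05. The stress response gene Sesn1 had 64.1, 66.4 and 60.6 CPM in WT libraries 3, 7 and 9 and 42.6, 37.3 and 51.9 CPM in TCL libraries 4, 8 and 10, and a log2 fold change of -0.54 (SE 0.16, 95% interval -0.899 to -0.17, adjusted p 0.095). Plk3, a stress-induced relative of Plk1, stood 0.703 higher in TCL on the log2 scale (adjusted p 0.159). Of 10 Myc network genes 0 passed and 1 had an unadjusted p under 0.05. It was Mxi1, a repressor that opposes Myc, at 0.39 on the log2 scale (adjusted p 0.199), and Mycl, a relative of Myc, stood at -0.49 (adjusted p 0.343). Without TCL library 4 Mxi1 stood at 0.24, and Mycl stood at -0.23 without TCL library 8 and at -0.899 without TCL library 10.

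Markers of other marrow cells were highest in the same libraries as the scores in several lists but not in all, and their part in these values was not tested. Of 15 erythroid genes 10 were tested, 2 rose, Slc4a1 and Ermap, and 8 did not pass, while 1 rose without WT library 3 or WT library 9 and 4 without TCL library 10. All 10 had a log2 fold change above 0, and 8 had an unadjusted p under 0.05, against 22.4% of all tested genes. In 8 every TCL library lay above every WT library, against 14.1% of all tested genes. DESeq2 called 6 erythroid genes higher and limma-voom called 1. Their summed level was 150.98 to 216 CPM in WT, and 334 to 973 CPM in TCL, highest in TCL library 8. The red cell anion exchanger gene Slc4a1 had 20.9, 18.6 and 17.8 CPM in WT libraries 3, 7 and 9 and 98.1, 181 and 86.9 CPM in TCL libraries 4, 8 and 10. The globin genes Hbb-bt, Hba-a1 and Hba-a2 were at 0 reads in every library, Hbb-bs had at most 0.816 CPM, and Ahsp is not analysed here. Of 12 genes of granulocyte precursors 0 passed in edgeR, 2 had an unadjusted p under 0.05 and DESeq2 called 1. Their summed level was 15139 to 29393 CPM in WT, highest in WT library 7, and 8774 to 17963 CPM in TCL, highest in TCL library 8. In 7 genes of B cell precursors 3 fell, Vpreb3, Igll1 and Rag1, and 4 did not pass, with summed levels of 79.5 to 175 CPM in WT and 44.4 to 73.2 CPM in TCL, and the count was 1 when TCL library 4, WT library 9 or WT library 7 was omitted and 2 when TCL library 10 was. Of 7 plasmacytoid dendritic cell genes 0 passed in edgeR, 3 had an unadjusted p under 0.05 and DESeq2 called 1. They summed to 345 to 582 CPM in WT and 375 to 654 CPM in TCL, with the highest values in WT library 7 and TCL library 8. Of 9 conventional dendritic cell genes 5 fell and 4 did not pass, while 2 fell without WT library 3, 3 without WT library 9 or TCL library 4 and 4 without WT library 7. Their summed level of 1692 to 2539 CPM in WT and 677 to 1068 CPM in TCL was lowest in WT library 7 and TCL library 8. Markers of megakaryocytes and of stroma and vessels summed highest in WT library 7 and TCL library 8 of their groups. Stem and progenitor markers did so too, at 219 and 174 CPM, but TCL library 10 was close at 171 CPM. By score, the mean log2 CPM, WT library 9 stood above WT library 7 for stem and progenitor markers, at 3.80 against 3.75. Monocyte and macrophage markers were highest in WT library 3, at 8658 CPM, and T and NK cell markers in TCL library 10, at 234 CPM. Plasma cell and B lymphocyte markers summed highest in WT library 7 of the WT libraries, at 1982 and 763 CPM. Of the TCL libraries, library 4 was highest for them, at 521 and 293 CPM, but TCL library 8 was close at 512 and 284 CPM. By score TCL library 8 stood above TCL library 4 for B lymphocyte markers, at 3.95 against 3.92.

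Per length, the levels of members spread widely. With the exon lengths of GENCODE M21, Ube2c had the highest mean level in WT, 56.1 CPM per kb, followed by Ccnb2 at 39.8 and Pcna at 39.01 CPM per kb. The lowest were Ccne2, Cdc25c and Pole, at 1.18, 1.11 and 1.05 CPM per kb. Annotated exons of all isoforms were joined for the length, which understates genes with long rare exons. Exons of 17 members overlap those of another gene in this annotation, 15 of them on the opposite strand, such as Kif20a with Cdc23 and Mcm7 with Cops6. The sources used here do not state whether counting used the strand, so such reads cannot be told apart. Pcna, Tyms, Ccnb1 and Ccnb2 have pseudogene copies named after them, whose reads could be shared. Pseudogene copies under other names were not searched for.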

How the data were processed

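Poly(A) RNA of sorted marrow dendritic cells was sequenced in 3 WT and 3 TCL samples. Per the submitters' processing notes the build was mm10, and HTSeq, STAR 2.4.2a, DESeq2 and cutadapt were used, in roles and an order not given there. The deposited table holds a normalized signal per gene and library, counts divided by a size factor per the file headers and the values. The authors' mean over libraries, log2 fold change, p-value and adjusted p-value of the deposited table are printed only as theirs. Dividing a library by its smallest value above 0 gave whole numbers for 100% of values, within 0.001, so reads could be recovered. Totals hold only reads counted to genes of the table.

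Recovered reads were tested with edgeR 4.0.16 (R 4.3.3): filterByExpr (13010 genes), TMM factors, robust quasi-likelihood test, Benjamini-Hochberg adjustment over all genes, threshold 0.05. Because the deposited values are normalized, limma-trend (limma 3.58.1) on log2 of the value plus a pseudocount of 1 was run too and called 262 genes higher and 326 lower, against 264 and 340. Standard errors come from the fold change and the F value of its test. Scores are mean log2 CPM with a prior count of 2. Columns were assigned to groups by name. DESeq2 1.42.0 and limma-voom were alternatives. On counts simulated for this comparison over 12825 genes, 54.5% of 2-fold changes and 86% of 4-fold changes were called, and 9 of 149 calls were false. Members, lists and tests were chosen with earlier results of these data known. Genes named with values in every library were 6 set ones and the 2 with the smallest p of each role, and, of the wider lists, up to 6 called genes or else the 2 with the smallest p.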

Additional observations from a re-analysis of the deposited data

How the results depend on the processing

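Under 14 alternatives 0 members were called in either direction, with a smallest adjusted p of 0.0545 (Kif20a, DESeq2). Of 294 fold changes of the 21 named members under them, 284 kept their direction and side of the threshold and 10 turned sign. Those that turned did so when 1 library was left out, and ranged over the 6 such fits from -0.021 to 0.45 for Top2a, -0.17 to 0.297 for Mcm2, -0.26 to 0.44 for Ccnb1, -0.00039 to 0.398 for Mcm6, -0.078 to 0.53 for Rrm2, -0.64 to 0.063 for Ube2c and -0.26 to 0.37 for Cdc20. The score difference, with scaling recomputed in each fit, was lowest without TCL library 8, at -0.1002, and highest without TCL library 4, at 0.28. Members whose groups did not overlap numbered 2, but 1 with scaling to library size only and 2 to 14 with 1 library left out. Of all tested genes 14.1% had TCL higher and 14.2% TCL lower with all 6 libraries. Fewer libraries overlap less often: without TCL library 8 the share with TCL lower was 22% of all tested genes. The all-gene share was not counted for the other such fits, so these counts are no trait of the members. Over all genes, 264 higher and 340 lower calls became 707 and 753 with DESeq2, and 208 lower with the filter of 5 CPM in 3 libraries. With 1 library left out they ran from 98 to 475 higher and from 130 to 429 lower. With scaling to library size only 54.3% of calls were higher, against 43.7%. In the pathway lists, 2 higher and 1 lower, the higher calls numbered 3 with DESeq2, 1 with that filter and with limma-voom, and 0 to 1 with a library left out. The lower calls numbered 2 with no filter, 3 with DESeq2 and 0 to 1 with a library left out. The cause of these shifts was not tested, beyond the smaller number of samples or genes in those fits. No paired analysis was possible because the columns of the table carry running numbers, not the replicate numbers of the labels. With 3 libraries a group, differences of about 2-fold could be missed, as 54.5% of simulated 2-fold changes were called. The simulation held no smaller change and drew the changed genes from genes of any level, not from genes like the members. It also made fewer calls than the data, 149 against 604. Fewer calls make the adjusted threshold harder to pass, so the share in the data may differ.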
